A study of Mus musculus with 10 samples.

Results

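The core autophagy machinery is described here as 36 genes chosen by name for their place in the pathway, out of 20813 genes in the deposited table, and not for any measured value. Earlier results of these data were known when the choice was made. All 36 were found by symbol, and all 36 had a mean normalized count of at least 10 over the 10 samples, the level required for testing. RNA had been sequenced from leukemic spleens of mice injected intravenously with T-cell acute lymphoblastic leukemia (T-ALL), a cancer of immature T cells. According to the protocols, all 10 leukemias were conditional for Sirt1, the C57BL/6 recipients received sub-lethal irradiation, and the unsorted spleen cells were taken after lysis of red cells, so host cells can be among them. Of these samples, 5 have the genotype label Sirt1 deleted and 5 the label control, and the protocols give intraperitoneal corn oil, with or without tamoxifen, as the treatments. The controls therefore carry the conditional allele as well, and an effect of tamoxifen itself cannot be told apart from an effect of Sirt1 deletion. The Cre driver, the age of the mice and the number of primary leukemias are not given in the sources used here. The labels name separate samples without saying how many leukemias they came from, so p-values measure the spread between these samples only.

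Autophagy encloses portions of cytoplasm in a double membrane, the autophagosome, and delivers them to lysosomes for degradation. The ULK kinase complex starts the process, a class III phosphatidylinositol 3-kinase marks the growing membrane, and lipids are then supplied by ATG9 vesicles and ATG2 transfer proteins. A pair of ubiquitin-like conjugation systems attaches ATG8 proteins (LC3 and GABARAP) to the membrane, where they hold cargo receptors such as p62. SIRT1 is a NAD-dependent deacetylase, and several ATG proteins are among its known substrates, so the comparison asks whether their transcripts differ when Sirt1 is deleted. Transcript levels were measured, and not protein, acetylation or autophagic flux.

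Sirt1 itself did not separate the groups. Its normalized count was 1925, 1715, 1817, 1812 and 2097 in labelled Sirt1-deleted replicates 7, 8, 10, 11 and 12, and 1735, 1803, 1796, 1909 and 1810 in control replicates 2 to 6 (log2 difference 0.05 with SE 0.06, adjusted p = 0.568 by limma). The deleted stretch of the gene is not given, and a gene-level count may include transcripts that lack it, so these samples are referred to as labelled Sirt1-deleted. Deposited values summed to 33.7 M to 34.5 M per sample (M, mega). Of the summed values, the 36 members held 0.155% to 0.167% in the labelled Sirt1-deleted samples and 0.166% to 0.179% in controls.

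Markers of the T lineage were abundant in every sample, with a summed normalized count of 186631 to 227580 in labelled Sirt1-deleted samples and 162230 to 180345 in controls over 12 genes, of which 3 were called higher and 2 lower. Myeloid markers differed more between the groups. Over 15 neutrophil markers the sum was 29148 to 101447 against 9215 to 12725, and 14 of the 15 genes were called higher. Over 16 macrophage and monocyte markers it was 7735 to 14051 against 3828 to 4245, with 12 called higher. Sums of 12 erythroid markers (40675 to 163788 against 44726 to 136969) and 8 B cell markers (499 to 976 against 474 to 767) overlapped between the groups, and none of these 20 genes passed the limma test. Stromal and endothelial markers summed to 4962 to 5469 against 5753 to 6656 over 9 genes, and 2 of the 7 tested were called lower. Of all tested genes, 16.8% were called higher and 19.4% lower. No marker in the table was at 0 in all samples. In a bulk spleen sample, fewer cells of a type and less RNA per cell cannot be told apart, and the part of the myeloid cells in the differences below was not tested.

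**Figure D1:**
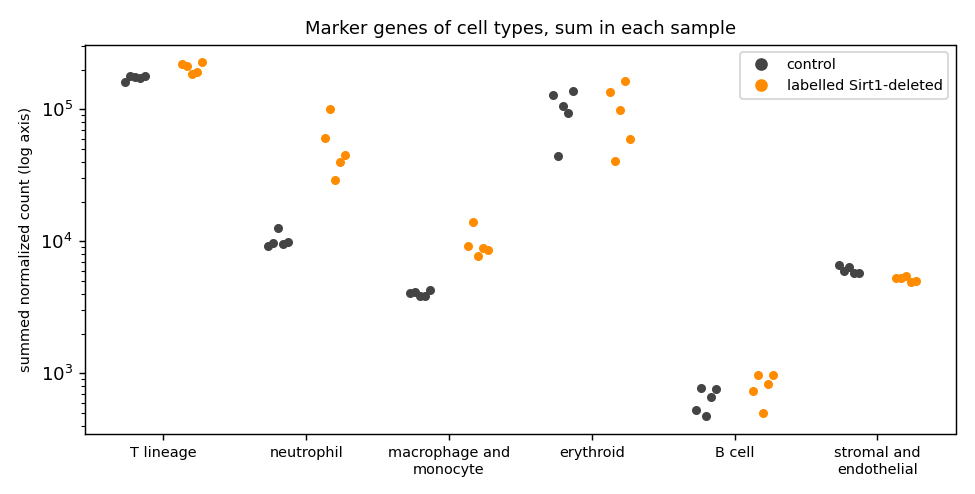
Summed normalized count of the marker genes of 6 cell types (log axis) in each sample, with 1 point per sample, control samples in grey and labelled Sirt1-deleted samples in orange. Neutrophil sums are 29148 to 101447 in labelled Sirt1-deleted samples and 9215 to 12725 in controls, while erythroid sums overlap.

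The core machinery did not move as a block. In the fit of all 15276 tested genes, 4 members rose in the labelled Sirt1-deleted samples (Atg101, Pik3r4, Atg2b and Atg4c), 7 fell (Ulk2, Atg13, Pik3c3, Atg14, Wipi2, Atg10 and Tax1bp1), and 25 did not pass (limma, adjusted p under 0.05 by the Benjamini-Hochberg method over all tested genes). After upper-quartile rescaling of the samples the calls were 5 higher and 5 lower. The background share was 36.1% of all tested genes, 16.8% called higher and 19.4% called lower, and the members' share was 30.6%, so the number of calls among the autophagy genes is near that of the transcriptome and is not a result about autophagy. What the data show is which subunits of each complex differ and by how much. Counts within each role, given below for few genes each, have the same background shares.

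Differences of the members were small. The log2 differences ran from -0.43 (Ulk2) to 0.65 (Atg4c), with a median of -0.10 where the median of all tested genes was -0.00014. The estimate was negative for 25 of the 36 and positive for 11, and negative for 21 after upper-quartile rescaling, which raised the median of all tested genes to 0.06. Among called genes of the whole table, 33.0% had log2 differences of 0.5 or more in either direction, and among the 11 called members only Atg4c did. Samples separated completely by group for 9 members, 4 higher and 5 lower, where 24.0% of all tested genes did not overlap. Within groups, the median coefficient of variation over the members was 9.06% in labelled Sirt1-deleted samples and 8.29% in controls. For the 24 members with a mean over 1000, the 95% interval of the log2 difference reached at most 0.27 to either side.

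**Figure D2:**
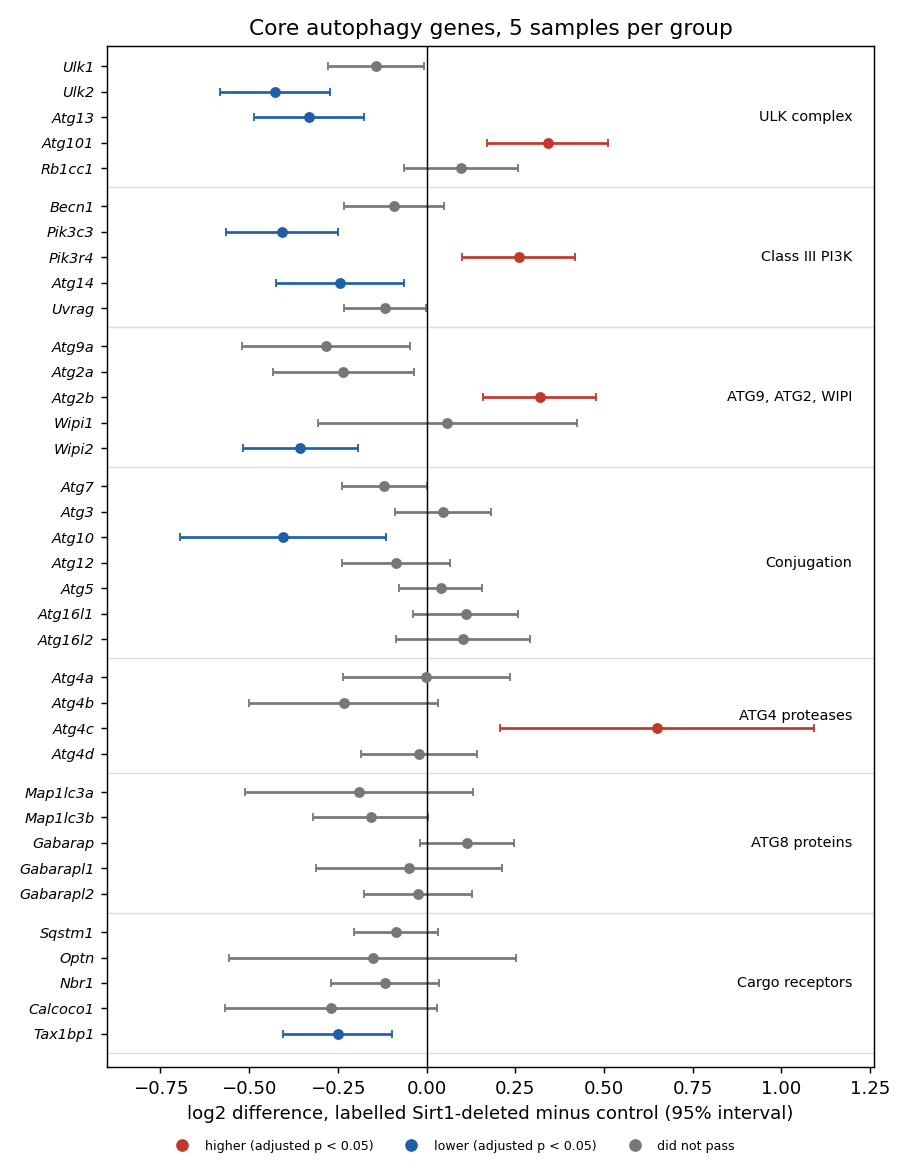
Log2 difference of each of the 36 members, labelled Sirt1-deleted minus control, with its 95% interval from limma, ordered by role (n = 5 per group). Red and blue points passed the test as higher and lower, and grey points did not, which includes all 5 ATG8 genes and the conjugation genes other than Atg10.

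Within the ULK complex, genes changed in opposite directions: of 5 genes 1 rose, 2 fell and 2 did not pass, with a median log2 difference of -0.14. Ulk2, which encodes a serine-threonine kinase that starts autophagosome formation, measured 770, 792, 847, 762 and 710 in labelled Sirt1-deleted replicates 7, 8, 10, 11 and 12, and 1186, 986, 1063, 1032 and 958 in control replicates 2 to 6. Every labelled Sirt1-deleted sample lay below every control. The mean fell from 1045 ± 88.8 to 776 ± 49.6 normalized counts (SD, n = 5 each), a log2 difference of -0.43 (SE 0.07, adjusted p = 0.00138 by limma). Ulk2 lies on chromosome 11, 61775649 to 61855073, on the minus strand (GRCm38, GENCODE M21).

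Atg13 (chromosome 2, 91674618 to 91710576, minus strand), the adaptor through which the kinase is regulated, had 1028, 1151, 1091, 1199 and 1031 normalized counts against 1533, 1380, 1249, 1473 and 1292 in controls. Its groups did not overlap either, and the log2 difference was -0.33 (SE 0.07, limma adjusted p = 0.00444). Atg101 (chromosome 15, 101284272 to 101290945, plus strand), whose product binds ATG13 and stabilizes it, moved the other way. It measured 1288, 1329, 1339, 1367 and 1385 against 866, 1125, 1115, 1030 and 1187. All 5 labelled Sirt1-deleted samples were above all controls, with an SD of 37.3 against 125 in controls, and control replicate 2 was the lowest of its group. The log2 difference of Atg101 was 0.34 (SE 0.08, limma adjusted p = 0.00608).

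Ulk1, the better known of the ULK kinases, had a log2 difference of -0.14 that did not pass (SE 0.06, limma adjusted p = 0.0935). Its level was 2202 ± 156 against 2429 ± 162 (SD, n = 5 each), and 4 of the 5 labelled Sirt1-deleted samples were below all controls. Rb1cc1, which encodes the scaffold FIP200, measured 1865 ± 204 against 1736 ± 66.2 (log2 difference 0.10, limma adjusted p = 0.328). Calls for both genes appeared when 1 sample was left out: Ulk1 without labelled Sirt1-deleted replicate 11 (-0.18, limma adjusted p = 0.0424) and Rb1cc1 without replicate 10 of the same group (0.16, limma adjusted p = 0.0317). In Rb1cc1, 16.7% of the 31-base words of its coding transcripts also occur in another gene, nearly all in Gm13961, so its count is uncertain.

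Ratios of genes within a sample do not depend on how samples were scaled, and several were examined after the values had been seen, so they carry no test. The ratio of the Atg101 to the Atg13 count was 1.14 to 1.34 in labelled Sirt1-deleted samples and 0.565 to 0.919 in controls. Ulk1 relative to Ulk2 was 2.44 to 3.18 against 2.24 to 2.39. Neither ratio overlapped between the groups. For Atg101 to Atg13 this was fixed beforehand, since each gene alone separated the groups, in opposite directions, so the ratio adds no evidence.

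In the class III phosphatidylinositol 3-kinase complex, the catalytic subunit and its regulatory partner also diverged, with 1 gene higher, 2 lower and 2 not passing (median log2 difference -0.12). Pik3c3, which encodes the lipid kinase VPS34, measured 1212, 1302, 1374, 1355 and 1103 in labelled Sirt1-deleted samples and 1884, 1597, 1712, 1618 and 1592 in controls. The highest labelled Sirt1-deleted sample, replicate 10, was still below the lowest control. Pik3c3 fell by 0.41 on the log2 scale (SE 0.07, limma adjusted p = 0.00185), to 75.5% of the control mean.

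Pik3r4 (chromosome 9, 105642978 to 105687657, plus strand) encodes VPS15, the pseudokinase that anchors VPS34. It measured 1162, 1103, 1043, 1128 and 1372 against 1009, 955, 991, 970 and 908. No values overlapped, and replicate 12 was well above the rest of its group. The log2 difference of Pik3r4 was 0.26 (SE 0.07, limma adjusted p = 0.0159). The ratio of Pik3r4 to Pik3c3 was 0.759 to 1.24 in labelled Sirt1-deleted samples and 0.536 to 0.599 in controls, chosen after the values were seen. It could not overlap, since each gene alone separated the groups, in opposite directions.

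Atg14 (chromosome 14, 47540893 to 47570649, minus strand) directs the kinase to autophagosomes, and Uvrag to a separate endosomal complex. Atg14 measured 406, 325, 353, 401 and 363 against 467, 436, 404, 444 and 432. Replicate 7 of the labelled Sirt1-deleted group reached into the control range. The log2 difference of Atg14 was -0.24 (SE 0.08, limma adjusted p = 0.0368), and this call was lost under 5 of 11 processing alternatives and in 7 of 10 fits that left out 1 sample. It is the least stable of the calls. Uvrag showed the reverse: its values did not overlap (1033 to 1150 against 1154 to 1231), yet the difference of -0.12 did not pass (SE 0.05, limma adjusted p = 0.102). Among the alternatives, Uvrag passed with the exact rank-sum test only (adjusted p = 0.0331). Becn1, the central regulatory subunit, was at 5574 ± 389 against 5942 ± 489 (log2 difference -0.09, limma adjusted p = 0.289).

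Among the genes that supply membrane, 1 rose, 1 fell and 3 did not pass (median log2 difference -0.23). ATG2 proteins form bridges that carry lipids from the endoplasmic reticulum to the growing membrane. Atg2b (chromosome 12, 105616136 to 105685211, minus strand) measured 2674, 2629, 2406, 2462 and 2976 against 1858, 2029, 2369, 2183 and 2102 in controls. All labelled Sirt1-deleted samples were above all controls, the closest pair being replicate 10 and control replicate 4. Atg2b rose by 0.32 on the log2 scale (SE 0.07, limma adjusted p = 0.00612).

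Atg2a was at 763 ± 92.9 against 896 ± 90.7, a difference of -0.23 that did not pass (SE 0.09, limma adjusted p = 0.0637) except without labelled Sirt1-deleted replicate 8. The ratio of Atg2b to Atg2a was 2.87 to 4.20 in labelled Sirt1-deleted samples and 1.78 to 2.58 in controls. That ratio did not overlap, and it too was chosen after the values were seen.

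Wipi2 (chromosome 5, 142627698 to 142670588, plus strand), which reads phosphatidylinositol 3-phosphate and recruits ATG16L1, measured 2246, 2141, 2468, 2432 and 1960 against 3294, 2667, 2737, 2848 and 2839. The groups did not overlap, and control replicate 2 stood above the other controls. Wipi2 fell from 2877 ± 245 to 2250 ± 210 (log2 difference -0.36 with SE 0.07, adjusted p = 0.00392 by limma). Without control replicate 2 the call was kept. Its paralog Wipi1 was expressed at 153 ± 36.7 against 145 ± 25.6 (limma adjusted p = 0.818). Atg9a, the membrane-spanning scramblase of the pathway, was at 831 ± 91.9 against 1016 ± 158 (log2 difference -0.28 with SE 0.11, adjusted p = 0.0595 by limma), and it passed without control replicate 3 or without labelled Sirt1-deleted replicate 10. Of the 31-base words of Atg9a, 36.2% also occur in another gene, mostly in Gm29253, which overlaps it on the same strand, so its count is uncertain.

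**Figure D3:**
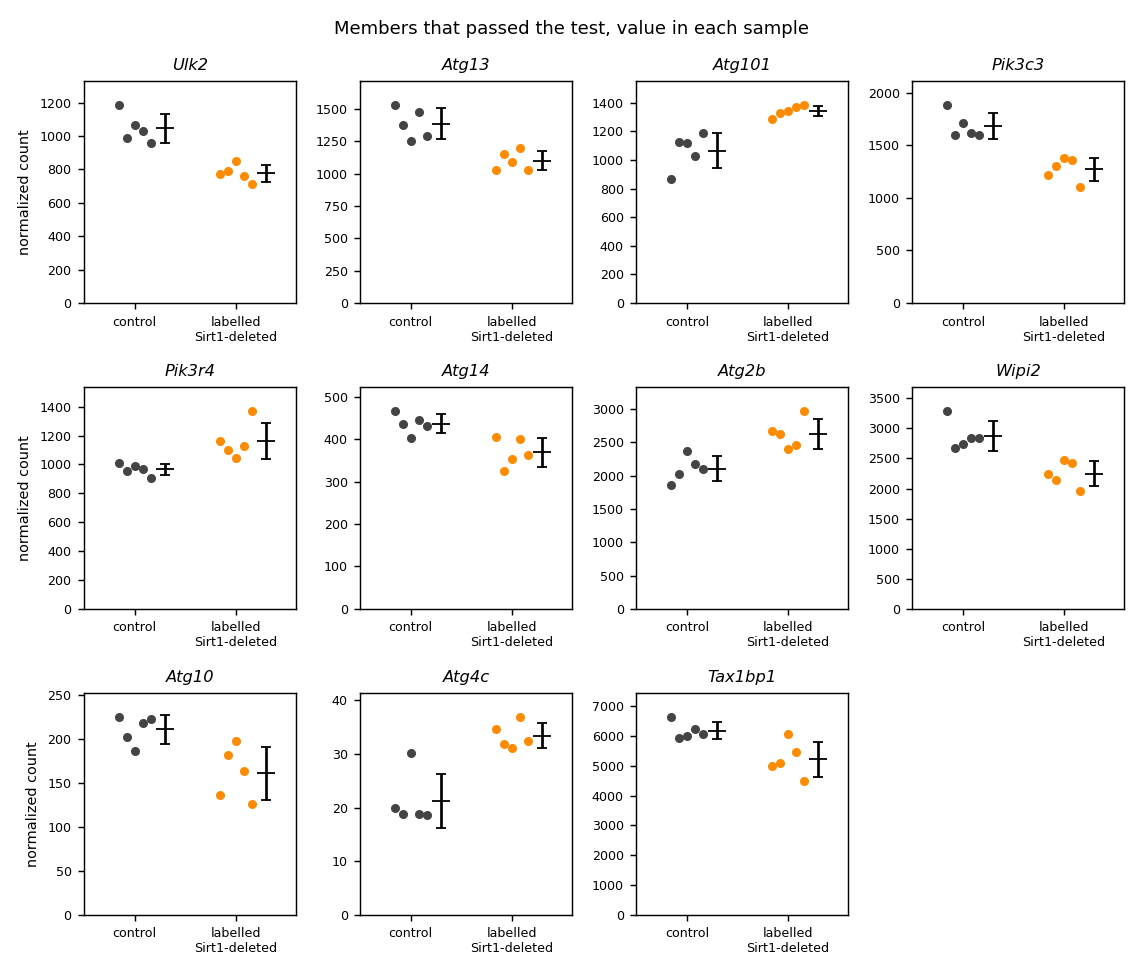
Normalized count of each of the 11 members that passed the test, with 1 point per sample and the mean ± SD beside each group of 5 (linear axes from 0). The groups overlap for Atg14, Atg10 and Tax1bp1 and not for the other 8.

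The conjugation enzymes attach ATG12 to ATG5 and ATG8 proteins to lipid. ATG7 activates both modifiers, ATG10 passes ATG12 on, ATG3 passes ATG8 on, and the ATG12-ATG5-ATG16L1 complex completes the second transfer. Promoter windows of several of these genes hold the core letters of the E-box that transcription factors TFEB and TFE3 bind. Which factors bind there was not measured. The letters CACGTG, which read alike on both strands, were found in the RefSeq promoter windows (250 bases before to 50 bases after a start, GRCm38.p6) of 4 of the 30 members with a window (13.3%) and of 8.09% of all genes with one. The 4 were Atg3, Atg5, Atg7 and Atg14. In Atg14 the match touches the start itself. The stretches before the start are shown for the other 3 because each is a conjugation gene, with the matches in capitals, on the plus strand, 5′ to 3′.
Atg3, chr16:45158705-45158793: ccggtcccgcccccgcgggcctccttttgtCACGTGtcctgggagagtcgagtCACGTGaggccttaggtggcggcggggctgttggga
Atg5, chr10:44268295-44268338: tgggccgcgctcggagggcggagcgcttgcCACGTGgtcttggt
Atg7, chr6:114670934-114670999: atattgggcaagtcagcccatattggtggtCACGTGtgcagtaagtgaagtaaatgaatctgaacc

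Atg3 holds 2 matches, beginning 94 and 71 bases before its start, and the second of them is part of the longer form TCACGTGA, found in 1 of 30 members and 1.13% of all genes. The Atg7 window belongs to a start inside the gene and not to its outermost start. The letters GTAAACA of FOXO sites were in none of the 30 members (4.05% of all genes), and GAAANNGAA, the core of interferon response elements, was in Uvrag, Atg10 and Nbr1 (10% of members, 9.76% of all genes). A match is a description of the letters and not of binding.

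Atg3, Atg5 and Atg7 differed little between the groups. Atg3 measured 1995, 2015, 2209, 2183 and 1802 against 1909, 1908, 1897, 2048 and 2102 (log2 difference 0.05 with SE 0.06, adjusted p = 0.593 by limma). Atg5 measured 1308, 1307, 1477, 1376 and 1406 against 1258, 1326, 1374, 1346 and 1380 (log2 difference 0.04, 95% interval -0.08 to 0.16, limma adjusted p = 0.599). The samples of both genes were interleaved. Atg7, whose product is a SIRT1 substrate as that of Atg5 is, measured 1202, 1157, 1083, 1152 and 1147 against 1269, 1250, 1182, 1196 and 1339, with 4 of 5 labelled Sirt1-deleted samples below all controls. Its difference of -0.12 did not pass (95% interval -0.24 to 0.00, limma adjusted p = 0.109).

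Of the 7 conjugation genes (median log2 difference 0.04), Atg10 (chromosome 13, 90935356 to 91223968, minus strand) was the 1 that passed the test. It had 136, 181, 198, 163 and 126 normalized counts against 225, 202, 186, 218 and 222. Replicate 10 reached into the control range. Atg10 fell by 0.40 on the log2 scale (SE 0.13, limma adjusted p = 0.0328), but did not pass after upper-quartile rescaling (-0.35, limma adjusted p = 0.050), with the exact rank-sum test (adjusted p = 0.0512), or in 6 of the 10 fits that left out 1 sample. The ratio of its SD to its mean was 18.7% in labelled Sirt1-deleted samples and 7.88% in controls. Atg12 (-0.09), Atg16l1 (0.11) and Atg16l2 (0.10) had log2 differences with limma adjusted p of 0.361, 0.221 and 0.378.

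ATG4 proteases cut ATG8 proteins to expose the residue that is joined to lipid, and later release them. Of the 4 genes 1 passed, and the median log2 difference was -0.01. Atg4c (chromosome 4, 99193934 to 99259787, plus strand) was the lowest of the 36 genes. It measured 34.7, 31.8, 31.2, 36.9 and 32.4 in labelled Sirt1-deleted samples and 19.9, 18.9, 30.2, 18.8 and 18.6 in controls. Control replicate 4 lay just below the labelled Sirt1-deleted samples and far above the other controls. Atg4c rose by 0.65 (SE 0.20, limma adjusted p = 0.0262), on a scale of log2(value + 1) that understates changes of so low a gene. Its call was lost after quantile normalization (0.37, limma adjusted p = 0.191) and in 6 of the 10 fits without 1 sample.

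The abundant ATG4 genes did not pass. Atg4b, the most active protease of the family, was at 1202 ± 199 against 1411 ± 210 (log2 difference -0.23 with SE 0.12, adjusted p = 0.155 by limma), and within the labelled Sirt1-deleted group replicates 10 and 11 (1407 and 1432) lay apart from the other 3 (1054 to 1058). Atg4b did pass without control replicate 6 (limma adjusted p = 0.0466). Atg4d was at 1432 ± 118 against 1455 ± 135 (limma adjusted p = 0.847). Atg4a was at 344 ± 48.0 against 342 ± 29.3 (limma adjusted p = 0.997), but 74.9% of its 31-base words also occur in the pseudogene Atg4a-ps, so that value is uncertain.

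None of the 5 ATG8 genes passed with the deposited scaling (median log2 difference -0.05). Map1lc3b, which encodes LC3B, the usual marker of autophagosomes, measured 2663, 2648, 2153, 2588 and 2110 in labelled Sirt1-deleted samples and 2923, 2621, 2686, 2602 and 2675 in controls. Replicates 10 and 12 were low, replicate 11 lay just below the lowest control, and replicates 7 and 8 lay within the control range. Its log2 difference was -0.16 (SE 0.07, limma adjusted p = 0.116).

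Gabarap measured 2793, 2814, 2522, 2748 and 2627 against 2156, 2597, 2568, 2545 and 2621. Here 4 labelled Sirt1-deleted samples were above all controls and replicate 10 was within them. The difference of 0.12 did not pass (SE 0.06, limma adjusted p = 0.158), and it did pass after quantile normalization (0.18, limma adjusted p = 0.0409) and upper-quartile rescaling (0.17, limma adjusted p = 0.0475). The ratio of Gabarap to Map1lc3b was 1.05 to 1.24 in labelled Sirt1-deleted samples and 0.738 to 0.991 in controls, without overlap. Like the other ratios it was chosen after the values were seen.

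Gabarapl2 was at 1937 ± 144 against 1971 ± 164 (limma adjusted p = 0.819), Gabarapl1 at 379 ± 66.5 against 390 ± 40.5 (limma adjusted p = 0.777) and Map1lc3a at 148 ± 23.6 against 169 ± 28.4 (limma adjusted p = 0.335). Their 95% intervals were -0.18 to 0.13, -0.31 to 0.21 and -0.51 to 0.13 on the log2 scale. Of the 31-base words of Gabarapl2, 21.1% also occur in another gene, most often in Gm3724. Per kilobase of the longest coding transcript, the levels of the family in controls were 1849 ± 143 for Gabarap, 1175 ± 98.0 for Gabarapl2, 1026 ± 49.0 for Map1lc3b, 214 ± 22.2 for Gabarapl1 and 152 ± 25.5 for Map1lc3a (SD, n = 5). With the median length of the coding transcripts Map1lc3b stood at 1634 ± 78.0 and above Gabarapl2, so the order of these 2 is not settled, while the places of the other 3 were the same.

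**Figure D4:**
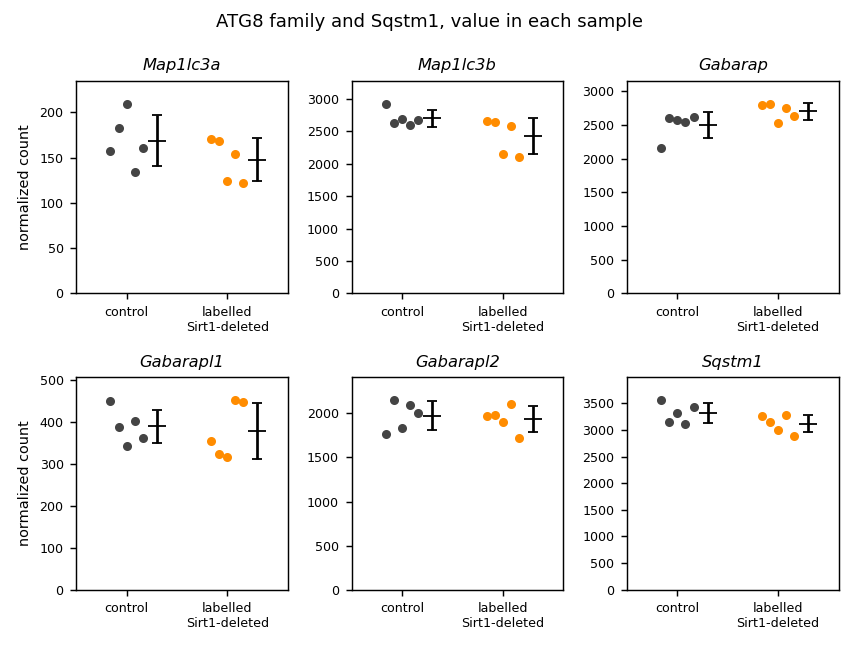
Normalized count of the 5 ATG8 genes and of Sqstm1 in each sample, with the mean ± SD beside each group of 5 (linear axes from 0). All 6 genes overlap between the groups, and control replicate 2 is the lowest sample for Gabarap (2156) and the highest for Map1lc3b (2923).

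Cargo receptors bind ubiquitin or other tags on one side and ATG8 proteins on the other. All 5 had negative estimates, a direction they kept under quantile normalization and upper-quartile rescaling, with a median log2 difference of -0.15, and 1 passed. Tax1bp1 (chromosome 6, 52713729 to 52766780, plus strand) measured 4997, 5080, 6052, 5456 and 4476 against 6647, 5946, 5987, 6225 and 6056. Replicate 10 reached into the control range, and the other 4 lay below it. Tax1bp1 fell by 0.25 on the log2 scale (SE 0.07, limma adjusted p = 0.0162), a call that was lost with the exact rank-sum test (adjusted p = 0.0823).

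Sqstm1, which encodes p62 and is used as a marker of selective autophagy, measured 3269, 3151, 3005, 3281 and 2894 against 3558, 3140, 3313, 3115 and 3438. Its samples overlapped, and the log2 difference was -0.09 (SE 0.05, 95% interval -0.20 to 0.03, limma adjusted p = 0.234). Nbr1 was at 2380 ± 183 against 2582 ± 217 (limma adjusted p = 0.209), Calcoco1 at 549 ± 101 against 661 ± 116 (limma adjusted p = 0.146) and Optn at 226 ± 74.0 against 244 ± 39.3 (limma adjusted p = 0.556). For Optn, labelled Sirt1-deleted replicate 11 was at 352 and the other 4 between 178 and 231. Per kilobase of the longest coding transcript, the receptors in controls ranked Tax1bp1 (1879 ± 87.1), Sqstm1 (1239 ± 71.1), Nbr1 (539 ± 45.3), Calcoco1 (223 ± 39.2) and Optn (93.5 ± 15.0), and the median length gave the same order.

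Across the 11 called members, labelled Sirt1-deleted replicate 10 was most often nearest to the controls, in 8 of them (Pik3r4, Atg2b, Atg4c, Ulk2, Pik3c3, Wipi2, Atg10 and Tax1bp1). Replicate 7 was nearest in 2, replicate 11 in 1, and replicates 8 and 12 in none. Among the marker sums of its group, replicate 10 had the lowest for neutrophils (29148), macrophages and monocytes (7735), the T lineage (186631) and B cells (499), and the highest for stromal and endothelial cells (5469). Single markers differed. Of the T lineage, replicate 10 was lowest for Thy1 (60175), Lck, Lat and Bcl11b and highest for Cd3e (14317), Cd5 and Ptcra. Of the stromal and endothelial markers, it was highest for Pdgfrb (2169) and lowest for Pecam1 (2613). These 2 sums therefore do not give the amount of a cell type. For some of these markers replicate 11 lay beside replicate 10. Ptcra was at 1171 and 1157 in replicates 10 and 11, and at 278 to 351 in replicates 7, 8 and 12. Thy1 (60175 and 64270 against 82730 to 100216) and Pecam1 (2613 and 2687 against 3477 to 3604) split alike. Cd5 did not, with replicate 8 (3931) nearer to replicate 10 (4030) than replicate 11 (3621) was. Whether replicates 10 and 11 share a leukemia is not given. The part of any marker in the nearness of replicate 10 to the controls was not tested. Without replicate 10, Ulk2 and Pik3c3 had log2 differences of -0.46 and -0.44, and 12 members passed (33.3%), while the share of all tested genes that passed rose to 41.1%. Without replicate 8, which had the highest neutrophil sum (101447), 11 members passed beside 31.5% of all tested genes. Control replicate 2 was the control farthest from the labelled Sirt1-deleted samples in Ulk2, Atg13, Pik3c3, Atg14, Wipi2, Atg10, Tax1bp1, Atg101 and Atg2b. In Pik3r4 it was the nearest control, and in Atg4c it was neither. Without control replicate 2, 8 members passed (22.2%), beside 27.5% of all tested genes, and Atg14, Atg10 and Atg4c were lost. The 31-base words of the called members were nearly their own, with 0% to 1.57% found in other genes. Exons of Atg14, Atg2b and Tax1bp1 overlap genes on the opposite strand, and the libraries were strand-specific, but whether the counting used strand is not given in the sources used here.

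Genes that surround the core machinery were examined in 5 further lists, of which 103 genes were tested. Of these, 12 were called higher and 26 lower, 36.9% in all beside the background of 36.1%, and the split was 16 and 20 after upper-quartile rescaling. The median log2 difference of the 103 was -0.11. Among 22 other autophagy regulators, 1 rose and 4 fell (22.7% called). Trp53inp2, whose product binds ATG8 proteins, rose from 69.5 ± 15.2 to 195 ± 54.9 normalized counts (log2 difference 1.46 with SE 0.20, adjusted p = 5.88e-04 by limma). Within the labelled Sirt1-deleted group it was highest in replicate 8 (274) and lowest in replicate 10 (137), as the neutrophil marker sum was. In controls the orders differed: replicate 4 had the highest neutrophil sum (12725) and replicate 3 the highest Trp53inp2 (88.8). The part of myeloid cells in the rise of Trp53inp2 was not tested. Epg5 (-0.34), a tether for fusion with lysosomes, Smcr8 (-0.33), a partner of C9orf72, and Tollip (-0.23), a receptor for protein aggregates, fell with limma adjusted p of 0.012, 0.00301 and 0.00665.

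mTORC1 and AMPK are the nutrient sensors that hold back or start autophagy through ULK1. Of 34 tested genes of this signalling, 5 rose and 7 fell, 35.3% called beside the background of 36.1%. Sesn2, which encodes a leucine sensor that restrains mTORC1, rose from 437 ± 38.5 to 834 ± 130 (log2 difference 0.92 with SE 0.11, adjusted p = 2.71e-04 by limma). Tsc2, a subunit of the complex that turns mTORC1 off, rose from 1667 ± 150 to 2445 ± 271 (log2 difference 0.55 with SE 0.08, adjusted p = 7.99e-04 by limma). Both genes had no overlap between the groups.

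Rragd, a GTPase that recruits mTORC1 to lysosomes, fell from 811 ± 54.7 to 464 ± 86.3 (log2 difference -0.82 with SE 0.11, adjusted p = 5.78e-04 by limma). Ddit4, an inhibitor of mTORC1 induced by stress, fell from 6366 ± 1474 to 4219 ± 987 (log2 difference -0.60, limma adjusted p = 0.0154). The list therefore held mTORC1 inhibitors that moved in opposite directions. Mtor itself was at 1425 ± 271 against 1758 ± 207 (log2 difference -0.32, limma adjusted p = 0.0638).

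Of 8 tested transcription factor genes of the TFEB and FOXO families and Zkscan3, 1 passed (12.5%, beside 36.1% of all tested genes). This was Tfec, at 30.7 ± 23.2 against 9.95 ± 3.17 (log2 difference 1.34, limma adjusted p = 0.0235), which is expressed in macrophages, whose markers were higher in the same samples. Its control mean was under the required mean of 10, so Tfec entered the test only through the labelled Sirt1-deleted samples. In that group replicate 8 was at 71.0 and the others at 14.0 to 26.9. Tfeb was at 275 ± 23.4 against 282 ± 17.0 (limma adjusted p = 0.752) and Tfe3 at 1286 ± 61.0 against 1270.5 ± 59.5 (limma adjusted p = 0.834). Foxo1 and Foxo3 had log2 differences of 0.07 and -0.16 (limma adjusted p of 0.511 and 0.0844).

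Receptors for mitophagy, ER-phagy and other selective forms had 2 genes called higher and 9 lower among 20 tested, with a median log2 difference of -0.18. That is 10% higher and 45% lower, beside 16.8% and 19.4% of all tested genes, a difference that was not tested. Bnip3l, the mitophagy receptor NIX, fell from 4085 ± 207 to 2886 ± 276 (log2 difference -0.50 with SE 0.07, adjusted p = 4.13e-04 by limma). Bcl2l13, another mitochondrial receptor, fell from 2880 ± 346 to 1791 ± 409 (log2 difference -0.71, limma adjusted p = 0.00265), and Ccpg1, an ER-phagy receptor, from 947 ± 101 to 699 ± 58.3 (log2 difference -0.43, limma adjusted p = 0.00297). Bnip3 was low, at 44.5 ± 13.4 against 66.3 ± 10.5, and lay at the threshold itself (limma adjusted p = 0.050). Bnip3l, Bcl2l13 and Ccpg1 did not overlap between the groups. Bnip3l is abundant in maturing red cells. The erythroid marker sums given above, to which globin genes contribute most, overlapped, and none of the 12 erythroid markers passed. Their log2 differences ran from -1.09 (Slc4a1, limma adjusted p = 0.0997) to 0.12 (Gata1, limma adjusted p = 0.606). Estimates were positive for Gata1, Hba-a2 and Alas2 and negative for the rest. The part of red cells in the fall of Bnip3l was not tested.

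For fusion of autophagosomes with lysosomes, 3 genes rose and 6 fell among 19 (47.4% called, beside 36.1% of all tested genes). Stx17, the autophagosomal SNARE, fell from 804 ± 119 to 538 ± 44.0 (log2 difference -0.57 with SE 0.10, adjusted p = 0.00185 by limma). Vamp8, the lysosomal SNARE that pairs with it, rose from 545 ± 36.1 to 698 ± 64.2 (log2 difference 0.35 with SE 0.08, adjusted p = 0.00567 by limma). Tbc1d5, a regulator of RAB7, fell by 0.35 (limma adjusted p = 0.00975). Grn, the lysosomal protein progranulin, rose by 0.34 on the log2 scale (limma adjusted p = 0.0137) and is strongly expressed by myeloid cells.

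**Figure D5:**
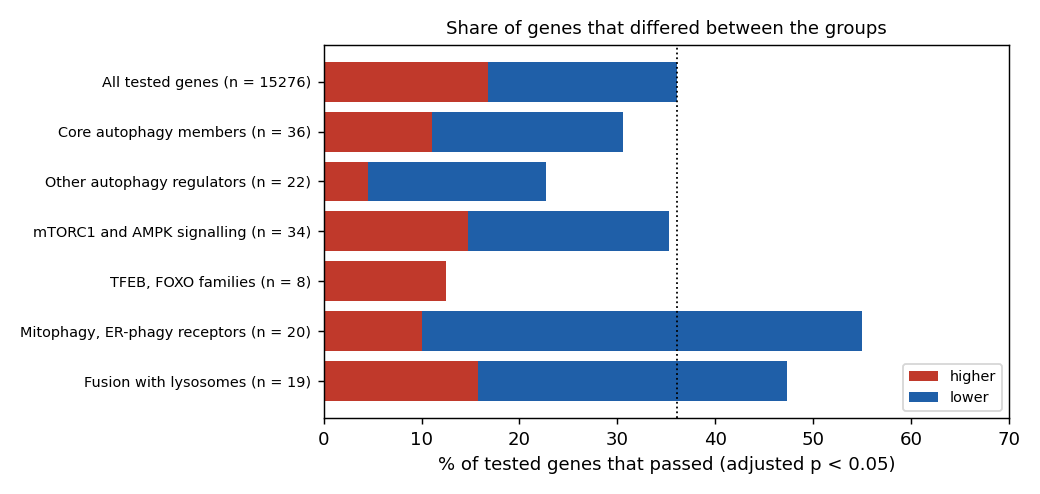
Share of tested genes that passed as higher (red) or lower (blue) in all tested genes, in the 36 members and in the 5 further lists, with the number tested in parentheses. The dotted line marks the share of all tested genes, 36.1%, and the members lie at 30.6%.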

How the data were processed

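Expression was measured by RNA sequencing in 10 leukemic spleens. Reads were quantified with kallisto 0.44.0 and normalized with DESeq on build mm10, per the submitters' processing notes. The deposited signal values are gene counts that the authors scaled by DESeq factors, and not raw counts. The annotation and the counting of strand are not given in the sources used here. Only 71.5% to 74.4% of values of at most 8.5 reads came within 0.1 of a whole read. Whole reads were therefore not recovered, no count model was run, and no counting intervals were derived. The best-fitting worth of 1 read would give a depth of 31.5 M to 38.0 M reads (M, mega), which is uncertain for the same reason.

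log2(value + 1) was fitted for 15276 genes with a mean of at least 10, with limma 3.58.1 in R 4.3.3 (group as the only term, intensity trend), and p-values were adjusted over all of them by Benjamini-Hochberg at 0.05. The script was tested on simulated data. Exons, lengths and shared 31-base words came from GENCODE M21 (GRCm38), and promoters from RefSeq. The settings varied were the pseudocount (0.1, 5), the minimum mean (none, 1, 50), the scaling (quantile, upper-quartile), the test (sample weights, no trend, exact rank-sum), the threshold (0.01) and the samples (each left out in turn).

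Members and lists were chosen with earlier results of these data known. All 36 members were named, with Sirt1, 5 regulators (Tfeb, Tfe3, Foxo1, Foxo3 and Mtor) and, from each further list, at most 4 called genes with the largest difference. Proteins were not used here.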

Additional observations from a re-analysis of the deposited data

Results flagged for a closer look

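For the 36 members and Sirt1, each group of 5 samples was searched for a highest or lowest sample whose gap to its neighbour exceeded 0.71 of the range of the group. Of 74 such groups, 4 held one, where chance at 1 in 20 gives 3.7, and all 4 were among the controls. Control replicate 2 accounted for 3 of them. It was high for Wipi2, at 3294 normalized counts against 2667 to 2848 in the other controls, and for Map1lc3b, at 2923 against 2602 to 2686. It was low for Gabarap, at 2156 against 2545 to 2621. Control replicate 4 was high for Atg4c, at 30.2 against 18.6 to 19.9.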

How the results depend on the processing

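No paired analysis was run, because the labels give no pairing of samples between the groups. Replicate numbers never coincide between the groups, which by itself does not show whether leukemias were shared. With 4 members called higher and 7 lower, the alternatives that kept all samples and the threshold gave 3 to 5 higher and 5 to 7 lower. In those fits 24.0% (exact rank-sum test) to 43.6% (minimum mean 50) of all tested genes were called. Leaving out 1 sample gave 3 to 5 higher and 5 to 8 lower. There the share of all tested genes called ran from 27.5% (without control replicate 2) to 41.1% (without labelled Sirt1-deleted replicate 10). At an adjusted p under 0.01, 2 members were higher (Atg101 and Atg2b) and 4 lower (Ulk2, Atg13, Pik3c3 and Wipi2), beside 18.7% of all tested genes, and 8 genes of the further lists were higher and 14 lower. These 6 members passed under all 11 alternatives and in all 10 fits without 1 sample. Of the 25 that did not pass, 18 passed in none of these fits. Sirt1 passed in none. The exact rank-sum test called 9 members and 24.0% of all genes. Per-kilobase levels by the longest coding transcript were added after seeing the data. Without raw counts, the counting error of low genes such as Atg4c is unknown.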
